A study of Mus musculus with 6 samples.

Results

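Kv7 and ether-a-go-go potassium channels were followed through 7 Kcnq and Kcnh channel genes, Kcnq3, Kcnq5, Kcnh1, Kcnh5, Kcnh2, Kcnh7 and Kcnh3. They were chosen among the 56923 genes of the deposited table with earlier results of these data known. Other Kcnq and Kcnh genes, Kcnh6 and Kcnh8 among them, were put in a partner list. None of the 7 mRNAs passed the test between 5xFAD and wild-type (WT) locus coeruleus. For the 6 that could be tested, differences of 1.5-fold or more lay outside the 95% interval. The locus coeruleus is a small noradrenergic nucleus of the pons that promotes waking, and its tissue punches were profiled by bulk poly-A RNA sequencing. There were 3 libraries of 5xFAD transgenic mice (numbered 64, 65 and 79) and 3 libraries of WT mice (62, 63 and 66). The 5xFAD line carries human transgenes with familial Alzheimer mutations under mouse Thy1 regulatory sequence, which is active in neurons, and deposits amyloid. The labels give no age, sex, strain or treatment and do not say whether each library came from a separate animal, so the p-values cover the spread among libraries only, which could be technical in part. The series concerns overexcitable locus coeruleus neurons and early sleep loss, and the comparison asks whether transcripts of channels that restrain firing differed.

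Kv7 channels open slowly below the firing threshold and give the M-current, a brake on repetitive firing that is released when Gq-coupled receptors deplete the membrane lipid PIP2. The ether-a-go-go family comprises the eag, erg and elk channels. Erg channels recover from inactivation and then close slowly, which damps firing and, in heart muscle, repolarizes the cell. Elk and eag channels pass outward current near and above rest in central neurons.

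All of these channels have a potassium-selective pore whose filter ends in glycine, an aromatic residue and glycine. The stretches coding for it are shown because their aromatic codon differs between Kcnq3 and the ether-a-go-go genes. They are given for 6 of the genes, as 30 bases of the sense strand of the longest coding transcript in GENCODE M21 (GRCm38), from chromosomes 15 (Kcnq3, Kcnh3), 1 (Kcnh1), 12 (Kcnh5), 5 (Kcnh2) and 2 (Kcnh7). Capitals mark the 9 bases of those codons, with a tyrosine codon in Kcnq3 and phenylalanine codons in the ether-a-go-go genes.
Kcnq3: ctggccaccattGGTTATGGAgacaagaca
Kcnh1: ctcaccagtgtgGGCTTTGGTaacattgcc
Kcnh5: cttacaaccataGGATTTGGAaacatagct
Kcnh2: ctcaccagcgtgGGCTTTGGCaatgtctct
Kcnh7: ctaaccagtgtaGGATTTGGAaatgtgtct
Kcnh3: ctcaccagtgtgGGCTTCGGCaacgtgtcc
Over these 30 bases the ether-a-go-go genes differed from Kcnq3 at 11 to 15 positions. Within the ether-a-go-go genes, Kcnh3 differed from Kcnh2 at 5 positions, Kcnh7 at 6, Kcnh1 at 7 and Kcnh5 at 11. Among annotated transcripts of the related pairs, the longest identical stretch was 14 bases for Kcnq3 and Kcnq5, 26 for Kcnh1 and Kcnh5 and 17 for Kcnh2 and Kcnh7. The longest between any of the 7 genes was 46 bases, shared by Kcnq3 and Kcnh7 with both strands searched.

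The libraries held 15158712 to 20079349 reads assigned to genes. Values are normalized counts, which the authors obtained by scaling each library's gene counts with a size factor of its own. Thy1, whose sequence is part of the transgene cassette, read 16885 to 22211 in 5xFAD and 7976 to 9090 in WT, which matches the labels. The noradrenergic markers, 9 genes that include Dbh and Th, were above 0 in every library, with a summed normalized count of 11920 to 16527 in 5xFAD and 8769 to 15183 in WT. The punches also held other cells. Summed markers of oligodendrocytes were 199494 to 311565 in 5xFAD and 206587 to 261582 in WT. Summed markers of cerebellar neurons were 7427 to 20815 in 5xFAD and 4102 to 16362 in WT. Of the 56 marker genes of 9 cell types, 54 were tested and 0 passed the limma test, with 1 (Cbln1, named after its value was seen) under 0.05 before adjustment. All 8 cerebellar, all 6 oligodendrocyte and all 5 microglial markers had a log2 fold change above 0, as did 50.2% of all genes. The other lists held both signs, and the summed levels were not tested between genotypes. In such mixed tissue, fewer cells of a type and less RNA per cell cannot be told apart.

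Kcnq3 encodes Kv7.3, a subunit that combines with other Kv7 subunits to form M-channels. It read 2092, 1874 and 2116 normalized counts in 5xFAD libraries 64, 65 and 79, against 2157, 2186 and 1901 in WT libraries 62, 63 and 66. Library 65 was the lowest of the 6 and the groups overlapped. The means were 2027 ± 133 in 5xFAD and 2081 ± 157 in WT (SD, n = 3 each), which is -0.037 as log2 fold change (SE 0.073, 95% interval -0.20 to 0.13). The interval corresponds to a 5xFAD level between 0.870 and 1.09 times the WT level.

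Kcnq5 encodes Kv7.5, which also carries M-type current and can assemble with Kv7.3. It read 247, 217 and 253 normalized counts in 5xFAD, against 221, 278 and 208 in WT. The highest and the lowest value both came from WT libraries, 63 and 66. The means were 239 ± 19.1 in 5xFAD and 236 ± 37.0 in WT (SD, n = 3 each), which is 0.029 as log2 fold change (SE 0.13, 95% interval -0.26 to 0.32).

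Kcnh1 encodes Kv10.1 (eag1), a channel of brain neurons that does not inactivate. It read 443, 484 and 393 normalized counts in 5xFAD, against 421, 435 and 387 in WT. Library 65 was the highest, whereas for Kcnq3 it was the lowest. The means were 440 ± 45.4 in 5xFAD and 414 ± 24.8 in WT (SD, n = 3 each), which is 0.082 as log2 fold change (SE 0.095, 95% interval -0.13 to 0.29).

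Kcnh5 encodes Kv10.2 (eag2), its close relative. It read 109, 95.7 and 136 normalized counts in 5xFAD, against 110, 133 and 114 in WT. The 5xFAD libraries held both the lowest and the highest value. The means were 113 ± 20.6 in 5xFAD and 119 ± 12.6 in WT (SD, n = 3 each), which is -0.080 as log2 fold change (SE 0.16, 95% interval -0.45 to 0.29).

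Kcnh2 encodes Kv11.1 (erg1), the channel known in human heart as hERG. It read 1469, 1200 and 1469 normalized counts in 5xFAD, against 1590, 1161 and 1645 in WT. Libraries 65 and 63 were low, so each genotype held a library well under its other libraries. The means were 1379 ± 155 in 5xFAD and 1465 ± 265 in WT (SD, n = 3 each), which is -0.077 as log2 fold change (SE 0.15, 95% interval -0.42 to 0.27). Its coefficient of variation over the 6 libraries was 14.0%, where counting noise at its read number gives 2.65%.

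Libraries 65 and 63 were also those with the highest summed cerebellar markers, 20815 in 5xFAD 65 and 16362 in WT 63, against 4102 to 12261 in the other libraries. They also had the lowest summed oligodendrocyte markers, 199494 and 206587, and the highest summed noradrenergic markers, 16527 and 15183. Log2 Kcnh2 was also correlated with the mean log2 level of each of these 3 lists, a measure other than the sum. Over the 6 libraries, each Pearson correlation had an adjusted p of 0.518 (exact permutation test, adjusted over 54 relations). Without libraries 65 and 63, a choice made after seeing the data, 2 libraries a group were left. Kcnh2 then stood at -0.14 in log2 fold change (SE 0.061, 95% interval -0.27 to -0.0066, limma unadjusted p = 0.0410, adjusted p = 0.717), which did not pass. Each library left out held the lowest Kcnh2 value of its genotype. The smaller SE and the narrower interval thus follow in part from that choice. On the libraries that were left, Kcnq5 stood at 0.22 (SE 0.13) and Kcnh7 at 0.14 (SE 0.081), with a limma adjusted p of 0.795 each.

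**Figure D1:**
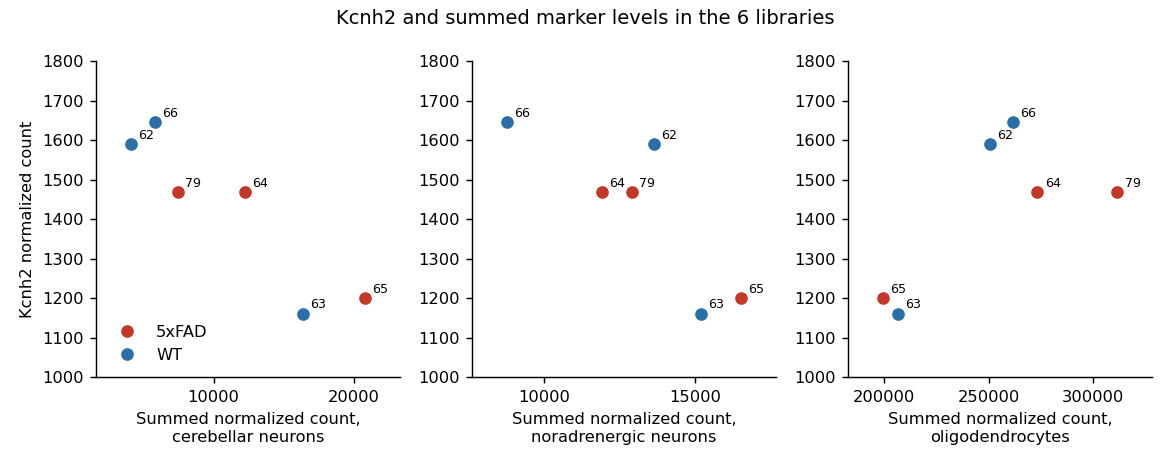
Normalized count of Kcnh2 (vertical axis, starting at 1000) against the summed normalized count of markers of cerebellar neurons, noradrenergic neurons and oligodendrocytes (horizontal axes), with a point per library labelled by its number (red 5xFAD, blue WT). Libraries 65 and 63 lie apart at the bottom, at 1200 and 1161 counts of Kcnh2.

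Kcnh7 encodes Kv11.3 (erg3), an erg subunit of the nervous system. It read 1045, 923 and 1201 normalized counts in 5xFAD, against 1054, 1063 and 981 in WT. The 5xFAD libraries 65 and 79 bracketed all 3 WT libraries. The means were 1056 ± 139 in 5xFAD and 1033 ± 44.9 in WT (SD, n = 3 each), which is 0.025 as log2 fold change (SE 0.092, 95% interval -0.18 to 0.23). In GENCODE M21, 696 of the 15226 exonic bases of Kcnh7 overlap Gca on the opposite strand. Whether strand was used in counting is not known from the labels, so reads there cannot be assigned to either gene.

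Kcnh3 encodes Kv12.2 (elk2), whose loss in mice makes forebrain neurons overexcitable. It was close to absent, with 8, 9 and 9 reads in 5xFAD and 5, 6 and 6 reads in WT. The normalized counts were 9.24, 9.36 and 9.00 in 5xFAD, against 4.64, 5.16 and 6.13 in WT. The 3 values in 5xFAD lay above the 3 in WT, yet Kcnh3 fell short of the filter of 10 normalized counts in 3 libraries. The summed reads were 26 in 5xFAD and 17 in WT, a depth-scaled ratio of 1.74 with an exact 95% Poisson interval of 0.910 to 3.42 that covers counting error only. Without a filter, limma gave 0.70 as log2 fold change (SE 0.46, unadjusted p = 0.145, adjusted p = 0.955), and the DESeq2 unadjusted p was 0.294. Among genes under the filter that were above 0, the groups did not overlap in 5.74%. The interval of the ratio includes 1.

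**Figure D2:**
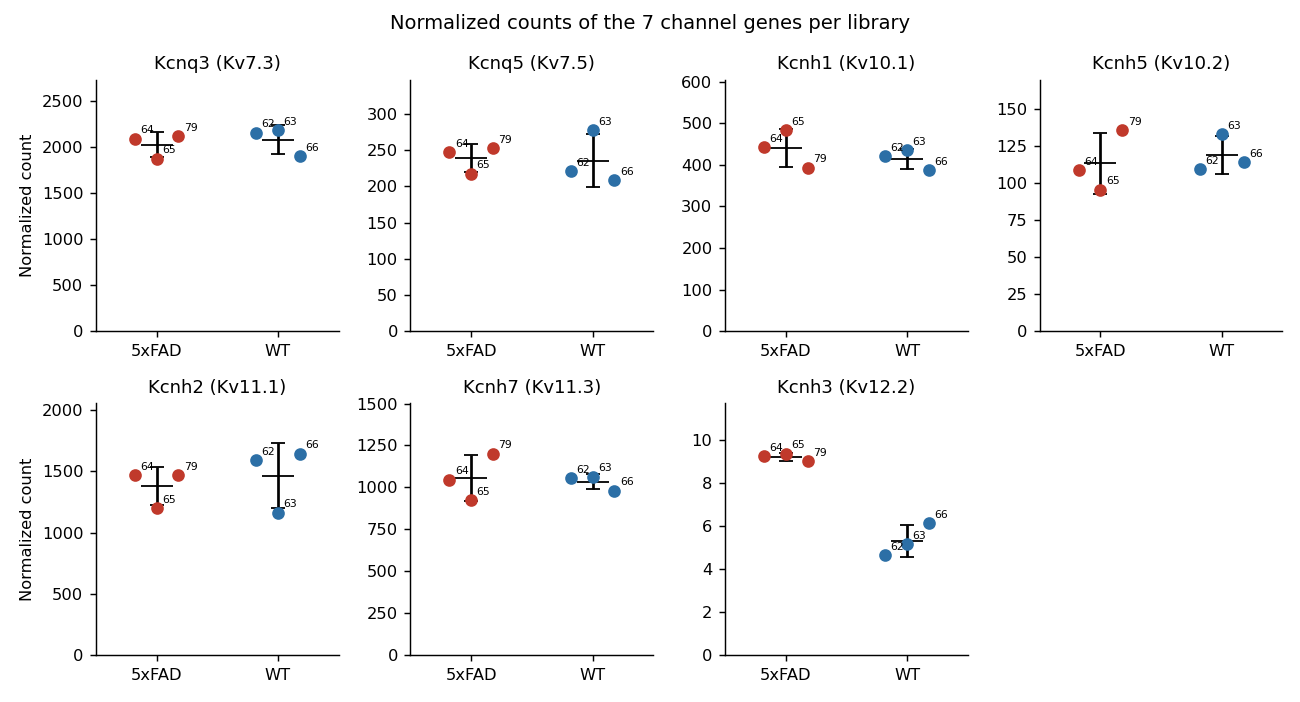
Normalized count (vertical axes, from 0) of each of the 7 genes in 5xFAD (red) and WT (blue) libraries, labelled by library number, with the group mean and SD in black. The groups overlap in 6 genes, and for Kcnh3, at under 10 counts in every library, all 3 5xFAD values lie above the WT values.

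As a group, 6 of the 7 genes passed the filter and 0 of these passed the limma test (adjusted p = 0.9995 for each), where 1 of 16411 genes, or 0.00609%, passed over the whole table. That gene was Thy1 (log2 fold change 1.23, limma adjusted p = 0.0456), whose sequence is part of the transgene cassette. An unadjusted p under 0.05 was reached by 0 of the 6, and by 2.32% of all genes. Among these 6 the smallest unadjusted p was 0.407 in limma, 0.404 in edgeR and 0.504 in DESeq2, and neither count-based tool called a member. Groups without overlap were found for 0 of the 6, and for 7.42% of all tested genes. Of the 6, 3 had higher and 3 lower values in 5xFAD, where 50.2% of all genes had higher values. Their median log2 fold change was -0.0061, and the median over all tested genes was 0.00053. The 95% interval lay within 1.5-fold either way for all 6, as for 71.4% of all tested genes, a bound chosen with the values known. It describes the punched tissue as a whole. In the authors' deposited table the adjusted p was 0.9999 for each of the 7, and the log2 fold changes, turned to 5xFAD over WT, ran from -0.087 for Kcnh2 to 0.084 for Kcnh1, with 0.80 for Kcnh3.

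Levels between the genes were compared per kb of exon. Kcnh2 had the highest level, 285 ± 32.0 normalized counts per kb in 5xFAD and 302 ± 54.6 in WT (SD, n = 3 each), above 83.6% of tested genes with a length. Kcnq3 came next, with 138 ± 9.07 in 5xFAD and 142 ± 10.7 in WT, above 67.5% of those genes. The level of Kcnh2 was above that of Kcnq3 in 6 of 6 libraries and their ranges over the libraries, 240 to 339 and 127 to 149 per kb, did not meet. In counts not divided by length Kcnq3 was above Kcnh2, with means of 2054 and 1422 over the libraries. Their order thus rests on the exon lengths taken, 14.708 kb for Kcnq3 and 4.845 kb for Kcnh2. Kcnh7 had 69.4 ± 9.13 per kb in 5xFAD and 67.8 ± 2.95 in WT, and Kcnh1 had 60.0 ± 6.19 in 5xFAD and 56.5 ± 3.38 in WT. The ranges of these neighbours over the 6 libraries met, at 60.6 to 78.9 per kb for Kcnh7 and 52.8 to 66.0 for Kcnh1. Kcnh7 was above Kcnh1 in 5 of 6 libraries, all but 5xFAD 65, and their ranges within WT did not meet. Levels of different genes were not tested against each other.

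Lower in the order, Kcnq5 had 31.1 ± 2.49 normalized counts per kb in 5xFAD and 30.7 ± 4.82 in WT. Kcnh5 had 28.0 ± 5.07 in 5xFAD and 29.3 ± 3.10 in WT. Kcnq5 was above Kcnh5 in 4 of 6 libraries, and the ranges of this pair met in each genotype. Kcnh3 was last, at 1.60 ± 0.03 per kb in 5xFAD and 0.92 ± 0.13 in WT, under all but 0.136% of tested genes. Those genes had passed the filter that Kcnh3 did not, so its low rank follows in part from the filter. The order was the same when the longest transcript was taken as the length. Of the summed per-kb level of the 7 genes, the erg pair made up 58.2%, the Kv7 pair 27.5%, the eag pair 14.1% and Kcnh3 0.205%, averaged over the libraries. Other genes of these subfamilies, Kcnh6 and Kcnh8 among them, are outside this sum, so the shares do not describe whole subfamilies.

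**Figure D3:**
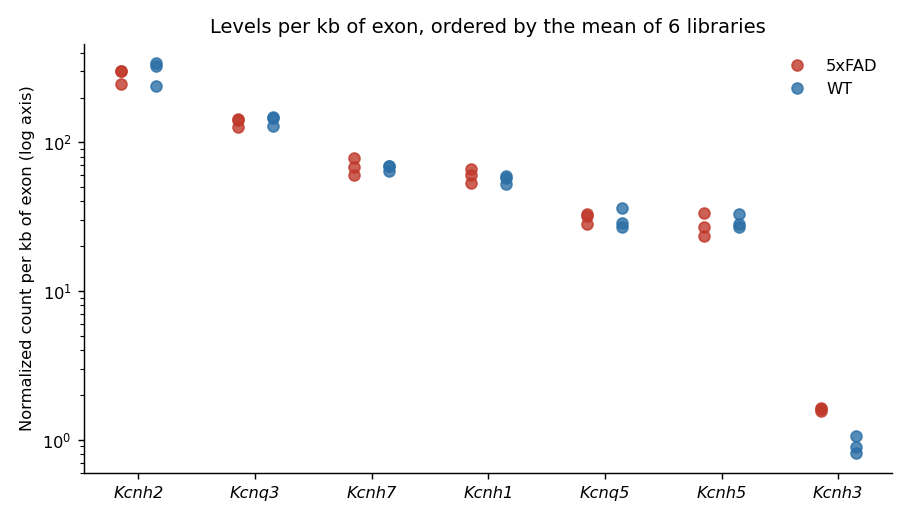
Normalized count per kb of exon (vertical log axis) of the 7 genes, ordered by their mean over 6 libraries, with a point per library (red 5xFAD, blue WT). Kcnh2 stands at 240 to 339 per kb and Kcnh3 at 0.807 to 1.63, and the colours lie together for the other 6 genes.

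Ratios between related genes within a library do not depend on how libraries are scaled to each other. The per-kb ratio of Kcnq3 to Kcnq5 was 4.42, 4.51 and 4.37 in 5xFAD, against 5.10, 4.11 and 4.77 in WT. The 5xFAD ratios lay within the WT range, with a log2 difference of -0.067 (two-sided exact permutation p = 0.6). Kcnh1 over Kcnh5 was 2.26, 2.80 and 1.60 in 5xFAD, against 2.13, 1.81 and 1.87 in WT. Here the WT ratios lay within the 5xFAD range, with a log2 difference of 0.16 (exact permutation p = 0.6). Kcnh7 over Kcnh2 was 0.226, 0.245 and 0.260 in 5xFAD, against 0.211, 0.291 and 0.190 in WT, with a log2 difference of 0.10 (exact permutation p = 0.6). All 3 values were 0.6 after Benjamini-Hochberg adjustment, and 3 libraries against 3 allow no p under 0.1.

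**Figure D4:**
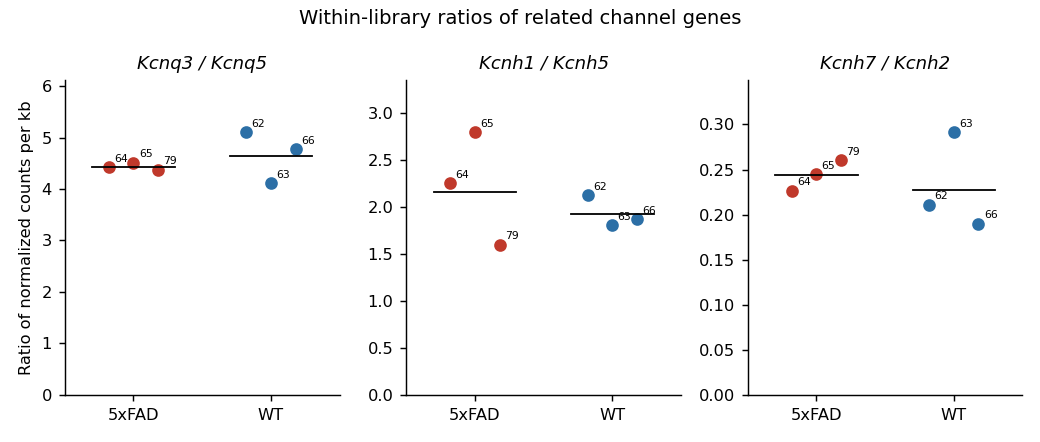
Within-library ratio of normalized counts per kb (vertical axes, from 0) for 3 pairs of related genes in 5xFAD (red) and WT (blue), labelled by library number, with black lines at the geometric mean of each group. The groups overlap in each pair.

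Other subunits of the family can replace or join the members in a channel. The erg subunit gene Kcnh6 averaged 29.4 ± 6.50 normalized counts in 5xFAD and 34.3 ± 2.23 in WT, which is -0.24 as log2 fold change (SE 0.25). The elk subunit gene Kcnh8 averaged 30.6 ± 4.87 in 5xFAD and 26.9 ± 2.90 in WT, which is 0.17 as log2 fold change (SE 0.24). Of the 5 genes listed, 3 passed the filter and 0 of these passed the limma test in either direction. For Kcnh6 and Kcnh8 a 1.5-fold difference lay inside the interval.

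Kcnq1 and Kcnh4 of that list were under the filter. Kcnh4, another elk gene named here after its values were seen, read 8.09, 12.5 and 6.998 normalized counts in 5xFAD, against 5.57, 4.30 and 4.08 in WT. Its groups, like those of Kcnh3 and of 5.74% of the genes under the filter, did not overlap. Its depth-scaled ratio was 1.97, with an exact 95% Poisson interval of 1.01 to 4.01 from 26 reads in 5xFAD and 15 in WT. That interval covers counting error only and belongs to a gene picked for its values. Without a filter its limma unadjusted p was 0.104 (adjusted p = 0.955), and its DESeq2 unadjusted p was 0.218.

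Kcne genes encode small membrane proteins that join Kv7 and erg channels and alter their gating. Of the 5 listed, 2 passed the filter, 1 with a higher and 1 with a lower value, and 0 passed the limma test. Kcne5 averaged 135 ± 13.5 normalized counts in 5xFAD and 143 ± 10.4 in WT, which is -0.091 as log2 fold change (SE 0.13). Kcne4 averaged 19.4 ± 6.50 in 5xFAD and 15.99 ± 3.24 in WT, which is 0.22 as log2 fold change (SE 0.35). The list's median log2 fold change was 0.066.

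Calmodulin binds Kv7 and eag channels, ankyrin G holds Kv7 channels at the axon initial segment, and ubiquitin ligases such as Nedd4l, kinases and the secretase Bace1 act on their number or gating. Of 14 such genes, 10 had higher and 4 lower values, where 50.2% of all tested genes had higher values. In either direction 0 of the 14 passed, and their median log2 fold change was 0.021. The lower ones included the calmodulin genes Calm2 and Calm3 and Ank3, which encodes ankyrin G. Calm2 averaged 13256 ± 225 normalized counts in 5xFAD and 14295 ± 240 in WT without overlap, which is -0.11 as log2 fold change (SE 0.049, limma unadjusted p = 0.0504, adjusted p = 0.9995). Ank3 averaged 9762 ± 344 in 5xFAD and 10342 ± 151 in WT, also without overlap, which is -0.084 as log2 fold change (SE 0.051). Of all tested genes, 7.42% had groups without overlap. With other tools, scalings, pseudocounts and filters the log2 fold change ran from -0.11 to -0.076 for Calm2 and -0.086 to -0.047 for Ank3. Both were smallest in size under quantile normalization. The log2 fold change was -0.070 for Calm3 (SE 0.059).

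Genes that raise or lower PIP2, and so the M-current, comprise Gq-coupled receptors, their G proteins and phospholipases, and lipid kinases. Of 26 listed genes 25 passed the filter, with 14 higher and 11 lower values, 0 past the limma threshold and a median log2 fold change of 0.019. Pip5k1c, a kinase that makes PIP2 in neurons, averaged 2609 ± 18.7 normalized counts in 5xFAD and 2387 ± 109 in WT without overlap, which is 0.13 as log2 fold change (SE 0.054). Its limma p before adjustment was 0.0380, and its limma adjusted p was 0.9995. Of all tested genes, 2.32% fell under 0.05 in limma before adjustment and 7.42% had groups without overlap. The histamine receptor gene Hrh1 averaged 154 ± 22.6 in 5xFAD and 182 ± 7.34 in WT, which is -0.25 as log2 fold change (SE 0.13). The lipid kinase genes Pi4ka and Pip4k2a had log2 fold changes of -0.0037 (SE 0.052) and 0.019 (SE 0.15), and that of Pi4ka turned to 0.00895 under quantile normalization.

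Chaperones and partners that fold, retain or bind eag and erg channels gave 5 higher and 12 lower values of 17, with 0 past the limma threshold and a median log2 fold change of -0.021. Of all tested genes, 50.2% had higher values. The 95% interval lay within 1.5-fold for all 17, as for 71.4% of all tested genes. The cochaperone gene Dnaja2 averaged 2996 ± 34.8 normalized counts in 5xFAD and 3157 ± 51.0 in WT without overlap, which is -0.076 as log2 fold change (SE 0.048). Stub1, a ubiquitin ligase that clears misfolded proteins, averaged 1423 ± 42.7 in 5xFAD and 1345 ± 52.9 in WT without overlap, which is 0.081 as log2 fold change (SE 0.057). The chaperone genes Hspa8 and Hsp90aa1 had log2 fold changes of -0.035 (SE 0.091) and -0.022 (SE 0.11), and both signs turned under quantile normalization, to 0.0073 and 0.014. Over the 5 lists, 1 of 61 tested genes (Pip5k1c) fell under 0.05 in limma before adjustment, where 2.32% of all genes did, and edgeR and DESeq2 called 0. The groups did not overlap in 6 of the 61, or 9.84%, against 7.42% of all tested genes.

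**Figure D5:**
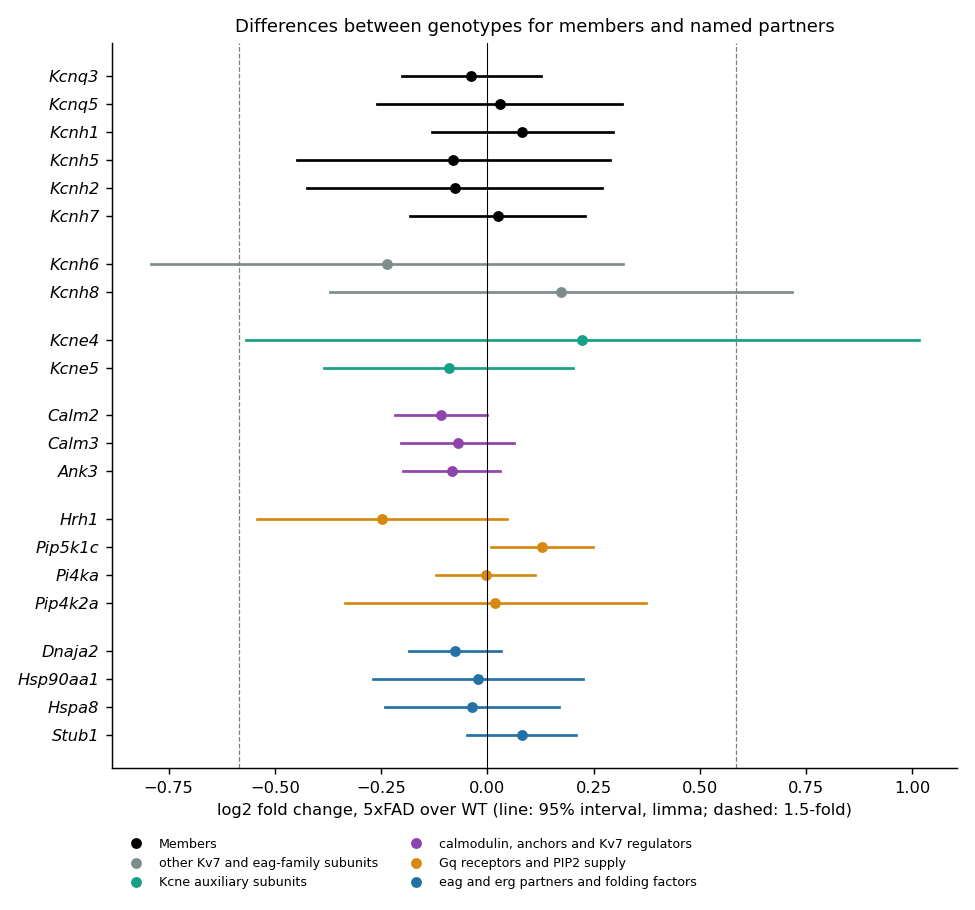
Log2 fold change of 5xFAD over WT (horizontal axis) with its 95% limma interval for the 6 tested members (black) and the named genes of the 5 partner lists (colours). Dashed lines mark 1.5-fold, and the intervals of all 6 members lie between them.

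The gene whose pattern over the 6 libraries was most like each member was sought among 11519 genes with a mean of at least 100 normalized counts. The Pearson correlation of log2 values was 0.99 between Kcnq3 and Pgm2l1, 0.98 between Kcnq5 and Cwc27, 0.98 between Kcnh1 and Dek, 0.99 between Kcnh5 and Lrsam1, 1.00 between Kcnh2 and Sgpp2 and 1.00 between Kcnh7 and Clcn5. All points share the same 6 libraries and size factors, no chance level was computed, and the values are a description only. The number of candidates above 0.95 was 147 for Kcnh2 and 13 to 36 for the other 5 members. Sgpp2 was, like Kcnh2, lowest in libraries 65 and 63, at 1963 and 1930 normalized counts, against 2313 to 2544 in the others.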

How the data were processed

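Locus coeruleus punches of 3 5xFAD and 3 WT libraries were grouped by their titles. The submitters' processing notes name the mouse build mm39 and the tools DESeq2, RSEM and STAR. For annotation release and counting strand, the answer is not given in the sources used here. The deposited table is named TPM, but its library columns hold a signal, the authors' gene counts scaled by a size factor. In each column 100% of the values were whole multiples of 1 step (tolerance 0.001), so whole numbers were recovered. They are called reads here, though with RSEM among the tools they may be rounded estimates. The size factors matched median-of-ratios factors recomputed over 19176 genes. Per the file headers, the authors also deposited a log2 fold change and standard error for each gene, a test score, and a p-value before and after adjustment. Their fold changes have WT on top and are printed here with the sign turned.

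Genes with at least 10 normalized counts in at least 3 libraries were put on the scale log2(normalized count + 1) and tested by limma 3.58.1 (variance trend, robust moderation, R 4.3.3), with Benjamini-Hochberg adjustment over all 16411 genes at 0.05. This scale understates the change of low genes. Alternatives were edgeR 4.0.16 and DESeq2 1.42.0 on the recovered reads, other scalings, pseudocounts, filters and moderation, and leaving out each library. The fits were also run on simulated data with planted changes of 1.5-fold or more, larger than the estimate for any tested member. The outcome is not used as support here. Symbols matched 91.5% of identifiers, and Kcne5 was matched by its older name. Exon lengths were taken from GENCODE M21. Its build, GRCm38, differs from that of the authors, and positions are left out. The members and lists were chosen with earlier results of these data known. Besides the members, the text names from each list the 2 genes with the smallest p and the 2 with the highest mean, and per member the gene most like it in pattern. Some items that this rule covers are not reported here. Figures were drawn with matplotlib 3.10.9.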

Additional observations from a re-analysis of the deposited data

How the results depend on the processing

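The count of members past the threshold stayed at 0 and that of partner genes at 0 under every alternative run: edgeR, DESeq2, quantile normalization, TMM scaling, pseudocounts of 0.5 and 8, no filter, a filter at 50, no trend or robust moderation, each library left out, and libraries 65 and 63 left out together. Over the whole table the count of 1 moved to 3 with DESeq2, 0 without trend and robust moderation, 9 without libraries 65 and 63 (an alternative chosen after seeing the data), and 0 to 2 with single libraries left out. No paired analysis was run because the labels give no pairing of the libraries.

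The signs of 5 of the 6 tested members turned with single libraries left out. The log2 fold change then ran from -0.101 to 0.0185 for Kcnq3, -0.0540 to 0.153 for Kcnq5, -0.217 to 0.0343 for Kcnh5, -0.236 to 0.0204 for Kcnh2 and -0.0715 to 0.118 for Kcnh7, while Kcnh1 kept its sign at 0.0112 to 0.161. Without libraries 65 and 63 together, Kcnq3 was at 0.0552, Kcnh5 at 0.118 and Pi4ka at 0.0208, each with its sign turned, while Kcnq5 moved to 0.22, Kcnh7 to 0.14, Kcnh2 to -0.14 and Kcnh1 to 0.048. Among partners, values with single libraries left out ran from -0.0299 to 0.0243 for Pi4ka, -0.0808 to 0.168 for Pip4k2a, -0.114 to 0.0772 for Hsp90aa1 and -0.109 to 0.0528 for Hspa8. Quantile normalization turned Pi4ka to 0.00895, Hsp90aa1 to 0.0140 and Hspa8 to 0.00728. The log2 difference in ratio ran from -0.154 to 0.00138 for Kcnq3 over Kcnq5, -0.0233 to 0.380 for Kcnh1 over Kcnh5 and -0.0266 to 0.282 for Kcnh7 over Kcnh2. The causes were not tested. Depth limits Kcnh3, which rests on 43 reads in all.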

Other observations

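The members fell into differing patterns over the 6 libraries, given here without a test. Kcnq3, Kcnq5, Kcnh5 and Kcnh7 varied together, with Pearson correlations of log2 values between 0.62 and 0.83 for each pair. Kcnh1 ran against Kcnh2 at -0.71 and against Kcnh5 at -0.63. These values share their libraries and size factors.

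The log2 level of each tested member was also set against the mean log2 level of the 9 marker lists, which gives 54 relations over 6 libraries. None passed after adjustment (smallest Benjamini-Hochberg adjusted p = 0.450, exact permutation test). An unadjusted p under 0.05, in either correlation, was found for 4 relations. Kcnh2 ran against cerebellar markers with Pearson r = -0.87 (exact permutation p = 0.0333, adjusted p = 0.518) and Spearman rho = -0.83 (exact permutation p = 0.0583, adjusted p = 0.711). Without the 2 libraries farthest from the median, 5xFAD 65 and WT 62, r was -0.86. The other 3 were with astrocyte markers. The mean log2 level of that list ran only from 12.43 in WT 63 to 12.52 in WT 66. Its genes did not move together: Slc1a3 was highest in libraries 65 and 63, where Aqp4 and Gja1 were lowest. For Kcnq3, r was -0.98 (exact permutation p = 0.00833, adjusted p = 0.450) and rho -0.89 (exact permutation p = 0.0333, adjusted p = 0.600). For Kcnh7, r was -0.81 (exact permutation p = 0.0292, adjusted p = 0.518) and rho -0.89 (exact permutation p = 0.0333, adjusted p = 0.600). For Kcnq5, r was -0.78 (exact permutation p = 0.0764, adjusted p = 0.518) and rho -0.94 (exact permutation p = 0.0167, adjusted p = 0.600). Without 5xFAD 65 and WT 66, r was -0.79 for Kcnq3, -0.40 for Kcnh7 and -0.38 for Kcnq5, so the relations of Kcnh7 and Kcnq5 were weaker without those libraries.

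For the other lists set beside Kcnh2, r was 0.82 with oligodendrocyte markers (exact permutation p = 0.0694) and rho 0.60 (exact permutation p = 0.242). Without 5xFAD 65 and WT 63 that r turned to -0.55, so the relation rested on those libraries. With noradrenergic markers r was -0.74 (exact permutation p = 0.0681) and rho -0.77 (exact permutation p = 0.103), and without 5xFAD 65 and WT 66 r was -0.61.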
